A study of Mus musculus with 6 samples.

Results

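The FoxO transcription factors and 7 genes that they are known to induce were examined in mouse long-term haematopoietic stem cells (LT-HSCs) with and without c-myc and N-myc. All probe sets whose only annotated gene symbol was Foxo1, Foxo3, Foxo4, Klhl24, Tcp11l2, Pik3ip1, Tsc22d3, Sesn1, Cited2 or Pdcd4 were kept. This gave 28 probe sets of 10 genes, among 45037 probe sets and 18193 genes on the array. Of the 28 probe sets, 9 belong to the FoxO factors and 19 to the FoxO-induced genes. The 10 genes were chosen with the differences between these same arrays already known, so their values are a description and carry no test.

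FoxO factors are forkhead transcription factors that growth signalling keeps out of the nucleus. Insulin and cytokine receptors activate phosphoinositide 3-kinase (PI3K) and the kinase AKT, AKT phosphorylates FoxO proteins, and 14-3-3 proteins hold them in the cytoplasm. When this signalling is low, FoxO proteins enter the nucleus and induce genes that slow growth, the cell cycle and translation, clear damaged mitochondria and detoxify reactive oxygen species. In mouse LT-HSCs they are known for keeping the cells quiescent and their oxidant level low. Because FoxO activity is set largely by phosphorylation and location, transcript levels of the factors do not measure it.

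The dKO group held 3 arrays of LT-HSCs from MxCre c-myc f2 N-myc f2 mice, each array a pool of 3 mice. The control group held 3 arrays from c-myc f2 N-myc f2 mice without MxCre, each a pool of 2 mice, with the second gene spelled M-Myc in the label of control replicate 2. All mice were 8 weeks old, on a mixed background and carried the floxed alleles, and all received 2 daily doses of pI-pC, a synthetic double-stranded RNA that induces interferon, the last 3 days before the marrow was taken. MxCre is a recombinase under an interferon-responsive promoter, so it can also act in cells other than stem cells, and the share of cells with both genes deleted is not given by the labels. Cells were sorted as Lin-Sca1+CD150+CD48-, a gate that as labelled does not include Kit.

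The values are log2 expression values made by the authors with RMA, in which 1 unit is a doubling of signal. Negative controls, 3 probe sets for a bacterial gene, ranged from 2.13 to 3.92. Both deleted genes were lower in dKO arrays, Myc by a log2 difference of -2.93 ± 0.20 (limma SE). The Mycn probe set 1417155_at averaged 3.46 in dKO arrays, in the negative control range, against 10.81 in control arrays, so the size of its fall is not measured exactly. Mycn probe set 1425922_a_at averaged 7.33 in dKO arrays, against 8.94 in control arrays, and 1425923_at differed by -0.08 without a call. Slamf1, which encodes CD150, lay between 9.07 and 9.52 in dKO arrays, against 9.04 to 9.34 in control arrays. All 14 measured LT-HSC marker genes lay above the negative controls, but 5 were called lower in dKO arrays: Tek (-2.25), Hlf (-1.66), Esam (-1.37), Hoxb5 (-1.10) and Kit (-0.87). Gata2 was called higher (0.63). Among all genes 3.56% were called lower and 4.49% higher. The 3' minus 5' difference of Gapdh ran from 2.39 to 2.47 in dKO arrays, against 2.12 to 2.36 in control arrays. Such a difference can reflect how intact the RNA was, but also the 2 rounds of amplification, and does not tell them apart. The Gapdh difference moved with the group. That of beta-actin overlapped between groups, at 0.20 to 0.21 in dKO arrays against 0.10 to 0.23 in control arrays. The part of RNA quality or amplification in the results below was not tested. In bulk samples fewer cells of a type and less RNA per cell cannot be told apart. An array-wide call below means a limma adjusted p under 0.05 over all 45037 probe sets.

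Of the 28 probe sets, 17 were lower in dKO arrays with an array-wide call, 2 were higher with a call, and 9 had no call. Across the array, 3.41% of probe sets were called lower and 3.57% higher. Because these genes were chosen from this contrast, nothing is read from the comparison of those shares. Taking for each gene its brightest probe set on average, 7 of the 10 genes were called lower (Foxo3, Klhl24, Tcp11l2, Pik3ip1, Tsc22d3, Sesn1 and Pdcd4), Cited2 was called higher, and Foxo1 and Foxo4 had no call. Over all genes, 3.56% were called lower and 4.49% higher. The median log2 difference of the 28 probe sets was -1.01, beside -0.01 for all probe sets. The dKO arrays all lay below the control arrays at 21 of the 28 probe sets, which occurred at 14.0% of all probe sets. They all lay above at the 2 Cited2 probe sets, which occurred at 13.4% of all probe sets. By representative probe set the dKO arrays lay below in 9 genes and above in 1, against 14.2% and 15.8% of all genes.

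**Figure D1:**
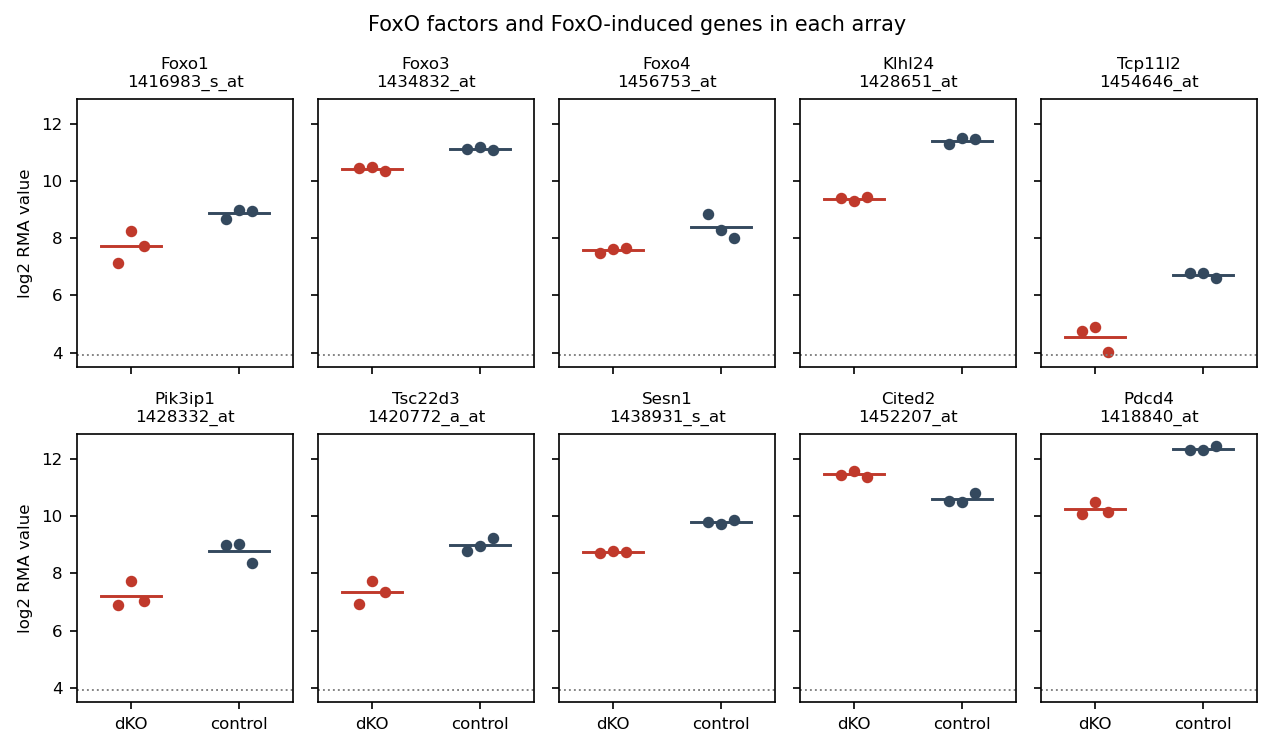
Log2 RMA value of each of the 10 genes in every array, at its representative (on average brightest) probe set, with the 3 dKO arrays (red) left of the 3 control arrays (dark blue) and horizontal bars at the group means. The dotted line is the highest negative control value, 3.92. The groups do not overlap in any panel, and Cited2 is the gene whose dKO arrays lie above its control arrays.

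Foxo3, the FoxO member best known for a role in stem cell maintenance in mice, was lower in dKO arrays at each of its 3 probe sets. Probe set 1434832_at had log2 values of 10.44, 10.49 and 10.33 in dKO arrays 1 to 3, against 11.10, 11.18 and 11.09 in control arrays 1 to 3. Probe set 1434831_a_at had 10.05, 10.02 and 9.77 in dKO arrays, against 10.80, 10.84 and 10.58 in control arrays. The groups were separated at both, and the arrays of a group lay within 0.28 of each other. Probe set 1450236_at averaged 9.76 ± 0.20 in dKO arrays, against 10.56 ± 0.12 in control arrays (SD, n = 3 each). The log2 differences were -0.71 ± 0.13, -0.79 ± 0.15 and -0.80 ± 0.16 (limma SE), that is 1.63-, 1.73- and 1.74-fold lower in dKO cells. All 3 had an array-wide call with 6 arrays. With 1 array left out, the call of 1434832_at was lost each time, that of 1434831_a_at held without control replicate 3 alone and that of 1450236_at without dKO replicate 2 alone, while the 3 differences stayed between -0.92 and -0.64 under every alternative tried.

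Foxo1, a FoxO factor with known roles in lymphoid development and insulin signalling, differed between its 4 probe sets. Probe set 1416983_s_at had log2 values of 7.14, 8.25 and 7.74 in dKO arrays, against 8.67, 8.98 and 8.96 in control arrays. All dKO arrays lay below the control arrays, but they spanned 1.10 among themselves, and the log2 difference of -1.16 ± 0.28 (limma SE) had no array-wide call. It was called without dKO replicate 2, after quantile normalization, without dim probe sets, with a trended robust prior and with array weights. Its name ends in _s_at, which on this array type marks probes that can match more than 1 transcript. The other 3 Foxo1 probe sets had log2 differences of -0.10 ± 0.20, -0.48 ± 0.21 and -0.15 ± 0.16, no call, and groups that overlapped. The mean over the 4 probe sets differed by -0.47 ± 0.14 and had no call, so a lower level of Foxo1 rests on 1 probe set.

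Foxo4, the X-linked member of the family, was measured by 1 probe set above background. Probe set 1456753_at had log2 values of 7.47, 7.62 and 7.67 in dKO arrays, against 8.86, 8.28 and 8.02 in control arrays. The dKO arrays all lay below the control arrays, among which control replicate 1 was highest, and the log2 difference of -0.80 ± 0.22 had no array-wide call. Probe set 1422149_at averaged 3.55 in dKO arrays and 3.57 in control arrays, both in the negative control range, so it does not measure the gene. All 9 FoxO factor probe sets had a difference below 0 in the deposited scaling, where the dim 1422149_at turned above 0 with each array centred on its median, and 3 of the 9, those of Foxo3, were called.

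Klhl24, which encodes a kelch-repeat protein that acts as a substrate adaptor of cullin-based ubiquitin ligases, was lower in dKO arrays at each of its 5 probe sets. Probe set 1428651_at had log2 values of 9.39, 9.30 and 9.43 in dKO arrays, against 11.28, 11.50 and 11.45 in control arrays. Probe set 1451793_at had 9.36, 9.50 and 9.67 in dKO arrays, against 11.18, 11.17 and 11.29 in control arrays. At both, the arrays of a group lay within 0.31 of each other, and the groups were far apart. The 5 log2 differences were -2.07 ± 0.16, -2.03 ± 0.13, -1.86 ± 0.16, -1.79 ± 0.18 and -1.70 ± 0.14 (limma SE), which is 3.25- to 4.20-fold lower in dKO cells. All 5 kept their call with any 1 array left out. Klhl24 thus differed by nearly the same amount wherever it was probed.

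Tcp11l2 had the largest difference among the representative probe sets, at a low signal. Its single probe set, 1454646_at, had log2 values of 4.77, 4.88 and 4.01 in dKO arrays, against 6.77, 6.79 and 6.60 in control arrays. The log2 difference was -2.17 ± 0.24, or 4.49-fold lower in dKO cells, and the call held with any 1 array left out. The dKO mean of 4.56 was above the negative control range, but dKO replicate 3 lay just over its top of 3.92, so the size of the fold rests on a level near background.

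Pdcd4, an inhibitor of the translation initiation helicase eIF4A, was also lower by more than 2 log2 units, at a signal far above background. Its probe set, 1418840_at, had log2 values of 10.07, 10.49 and 10.15 in dKO arrays, against 12.32, 12.30 and 12.44 in control arrays. The groups were separated widely, and the log2 difference was -2.12 ± 0.16 (limma SE), or 4.33-fold lower in dKO cells, with a call under every alternative limma fit. A log2 difference of -2 or less was found at 4 of the 28 probe sets (Klhl24 1428651_at and 1436968_x_at, Tcp11l2 and Pdcd4) and at 0.184% of all probe sets.

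**Figure D2:**
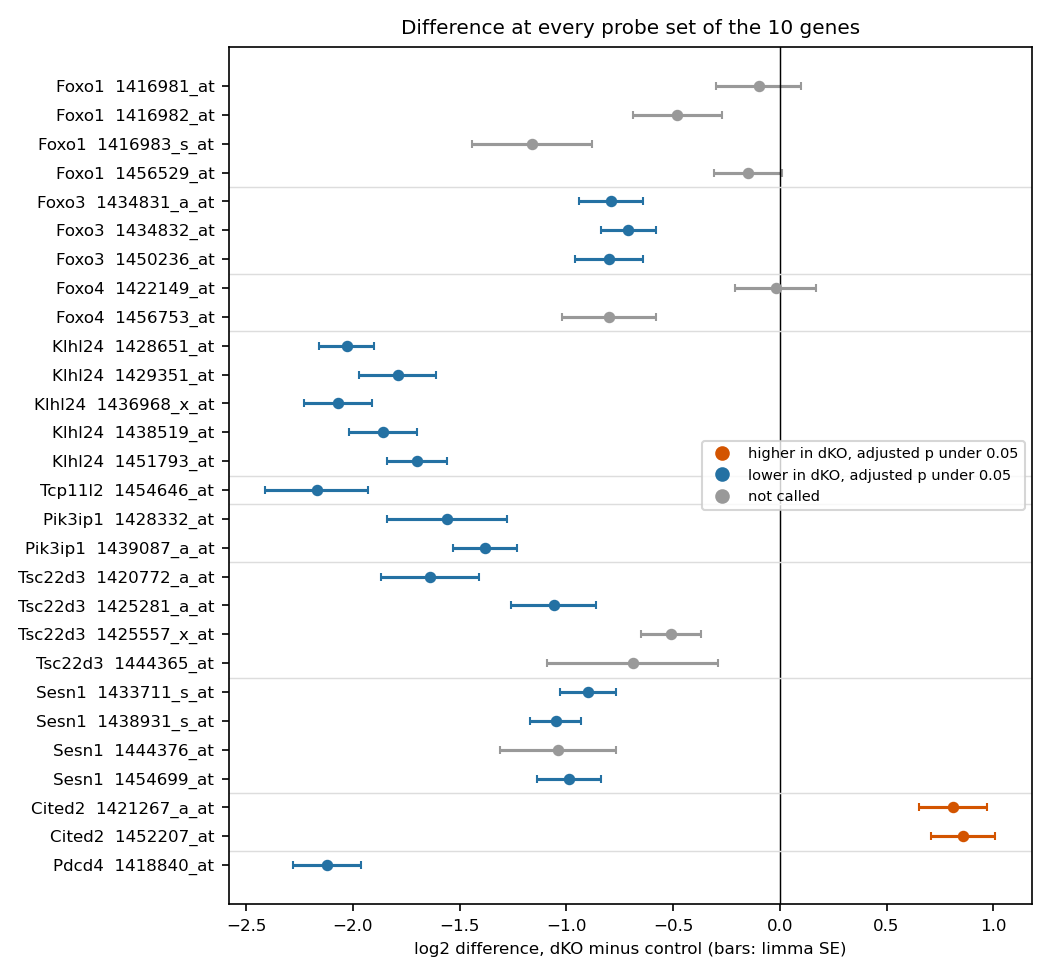
Log2 difference, dKO minus control, at every probe set of the 10 genes, with bars of 1 limma standard error and colours for the array-wide call. The 5 Klhl24 and 3 Foxo3 probe sets of each gene agree in size, while those of Foxo1 and Tsc22d3 spread, and the 2 Cited2 probe sets lie right of 0.

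Pik3ip1, a membrane protein that binds PI3K and inhibits it, was lower in dKO arrays at both of its probe sets. Probe set 1428332_at had log2 values of 6.89, 7.75 and 7.03 in dKO arrays, against 8.98, 9.02 and 8.36 in control arrays. Probe set 1439087_a_at had 6.44, 6.54 and 6.20 in dKO arrays, against 7.84, 7.80 and 7.67 in control arrays. The groups were separated at both, with a wider spread at the first. The log2 differences were -1.56 ± 0.28 and -1.38 ± 0.15, or 2.95- and 2.60-fold lower in dKO cells. The second kept its call with any 1 array left out, and the first kept it without control replicate 3 or dKO replicate 2 and lost it in the other 4 cases.

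Tsc22d3 encodes GILZ, a leucine zipper protein induced by glucocorticoids as well as by FoxO factors and known for restraining inflammatory signalling. Its probe set 1420772_a_at had log2 values of 6.92, 7.73 and 7.36 in dKO arrays, against 8.77, 8.95 and 9.24 in control arrays. Probe set 1425281_a_at had 6.41, 6.43 and 6.57 in dKO arrays, against 7.83, 7.67 and 7.11 in control arrays. All dKO arrays lay below all control arrays at both, and both were called, with log2 differences of -1.64 ± 0.23 and -1.06 ± 0.20 (limma SE). The first call held with any 1 array left out, and the second held without control replicate 3 alone. Probe set 1425557_x_at differed by -0.51 ± 0.14 without overlap between groups and without a call. Probe set 1444365_at had a dKO mean of 3.74, in the negative control range, and overlapping groups. The other 3 Tsc22d3 probe sets gave differences of unequal size, all below 0.

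Sesn1 encodes a sestrin, a stress-induced protein that restrains the growth kinase complex mTORC1 and is also a known target of p53. Of its 4 probe sets, 3 were called lower. Probe set 1438931_s_at had log2 values of 8.72, 8.79 and 8.75 in dKO arrays, against 9.80, 9.72 and 9.88 in control arrays. The dKO arrays were within 0.07 of each other and far from the control arrays. The log2 differences were -1.05 ± 0.12 at 1438931_s_at, -0.99 ± 0.15 at 1454699_at and -0.90 ± 0.13 at 1433711_s_at, or 2.07-, 1.99- and 1.86-fold lower, and these 3 calls held with any 1 array left out. Of these 3, 1438931_s_at and 1433711_s_at have the _s_at ending described for Foxo1, and 1454699_at does not. Probe set 1444376_at differed by -1.04 ± 0.27 with control values from 6.04 to 7.02 and had no call.

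Promoter windows of 250 bases before and 50 after the gene start were taken from RefSeq (GRCm38.p6), and 8 of the 10 genes had 12 such windows. The FoxO element GTAAACA, searched on both strands, was found in 1 of these 12 windows, the first of Sesn1, and in 3.65% of 32851 windows of all genes. In Sesn1 it begins at base 23 after the start, on the opposite strand. The 30 bases around it, chr10:41810585-41810614 (plus strand), are shown because Sesn1 was the gene that held the element, with its letters in capitals.
Sesn1: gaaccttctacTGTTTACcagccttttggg
The related element CAAAACA was found in 1 of the 12 windows, that of the second Pdcd4 start, and in 6.28% of all windows. A match is a description of letters in a short window and does not show that a FoxO protein binds there.

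Cited2 was the 1 gene of the 10 that was higher in dKO cells. It encodes a transcriptional cofactor that binds CBP and p300, competes with the hypoxia factor HIF-1 for them and is needed in mice for the maintenance of stem cells. Probe set 1452207_at had log2 values of 11.44, 11.59 and 11.38 in dKO arrays, against 10.53, 10.50 and 10.82 in control arrays. Probe set 1421267_a_at had 7.93, 8.23 and 7.80 in dKO arrays, against 7.26, 7.10 and 7.15 in control arrays. All dKO arrays lay above all control arrays at both. The log2 differences were 0.86 ± 0.15 and 0.81 ± 0.16 (limma SE), or 1.81- and 1.76-fold higher in dKO cells. Both had a call with 6 arrays, the first kept it without control replicate 3 alone and the second without dKO replicate 3 alone, and the 2 differences stayed between 0.69 and 0.96 under every alternative tried.

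The Cited2 promoter window held CACGTG, the E-box letters that Myc and its partners bind, which read the same on both strands. They were found in 1 of the 12 windows of these genes, that of Cited2, and in 7.15% of windows of all genes. The 250 bases before the Cited2 start, chr10:17722978-17723227 (plus strand, GRCm38.p6), are shown because Cited2 was the gene that differed in direction, with the E-box in capitals at position -153 from the start.
Cited2: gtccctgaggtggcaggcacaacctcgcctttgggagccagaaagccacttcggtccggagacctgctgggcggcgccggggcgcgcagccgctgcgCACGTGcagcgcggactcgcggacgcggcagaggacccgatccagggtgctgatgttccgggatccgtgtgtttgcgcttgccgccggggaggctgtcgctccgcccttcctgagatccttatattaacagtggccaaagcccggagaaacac
No FoxO element GTAAACA was in the Cited2 window. These letters were read from a reference sequence, and no binding was measured in the cells.

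**Figure D3:**
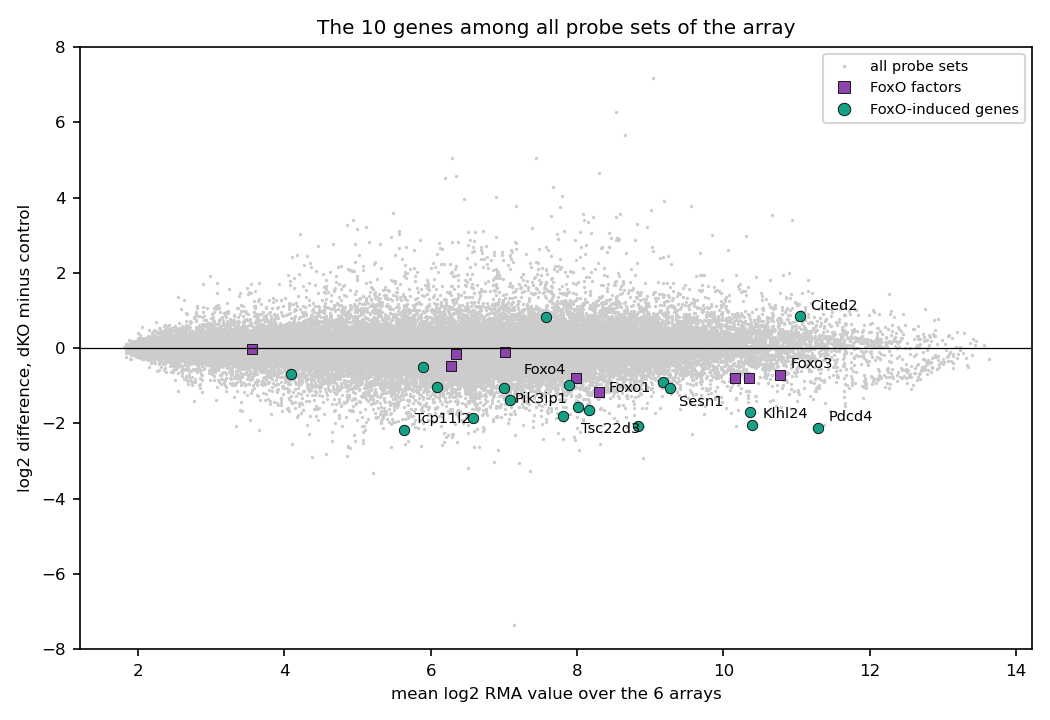
Log2 difference, dKO minus control, against the mean log2 RMA value over the 6 arrays for all 45037 probe sets (grey), with the 9 FoxO factor probe sets (squares) and the 19 FoxO-induced probe sets (circles). Names stand beside the representative probe set of each gene. Klhl24 and Pdcd4 lie below the grey cloud at high signal, at -2.03 and -2.12, and the FoxO factors lie nearer to 0.

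Other genes that FoxO factors are known to induce did not share a single direction. Of 42 listed, 41 were measured, of which 9 fell and 3 rose. The other 29 had no call, and the median log2 difference was -0.07 beside 0.01 for all genes. Of all genes, 3.56% were called lower and 4.49% higher. The list was drawn up with earlier results of these data known, so these shares are given as a description. The genes that fell included Pink1, the kinase that marks damaged mitochondria for removal (-1.45 ± 0.13, limma SE, adjusted p = 0.00282), the cyclin Ccng2 (-1.27 ± 0.17, adjusted p = 0.00847) and Ypel3 (-1.19 ± 0.15, adjusted p = 0.00715). The autophagy kinase Ulk1 fell by 1.18 ± 0.18 (limma adjusted p = 0.014) and Insr, the insulin receptor, was 2.01-fold lower (adjusted p = 0.0158). The others were Mxi1, an antagonist of Myc (-0.79 ± 0.14), the sestrin Sesn3 (-0.83 ± 0.16), Eif4ebp1, which restrains translation initiation (-0.80 ± 0.16), and Cat, the peroxide-clearing catalase (-0.60 ± 0.13). The second Mxi1 probe set was called lower at -2.31. Further probe sets of Sesn3 (-0.40), Cat (-0.43) and Eif4ebp1 (-0.44 and -0.13) had no call.

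The 3 that rose were Cdkn1a, which encodes the cell cycle inhibitor p21 (3.05 ± 0.30, limma SE, adjusted p = 0.00383), the antiproliferative gene Btg2 (1.05 ± 0.20, adjusted p = 0.0242) and the BH3-only death gene Pmaip1 (2.12 ± 0.44, adjusted p = 0.0329). All 3 are also known as targets of p53. Leaving out dKO replicates 1, 2 and 3 in turn gave 4, 4 and 5 genes that fell and 1, 2 and 2 that rose. Leaving out control replicates 1, 2 and 3 in turn gave 8, 4 and 5 that fell and 1, 1 and 2 that rose. Among textbook FoxO targets that did not pass, the inhibitor gene Cdkn1b differed by -0.38 (adjusted p = 0.167), Sod2, the mitochondrial superoxide dismutase, by -0.71 (adjusted p = 0.0793) and the death gene Bcl2l11 by -0.58 (adjusted p = 0.271). The 4 other Bcl2l11 probe sets differed by -0.48 to 0.42 without a call. Some genes without a call at the representative probe set had one elsewhere. Fbxo32 differed by -0.97 (limma adjusted p = 0.121), and its 2 other probe sets were called lower, at -2.19 and -0.99. Klf6 differed by 0.42 (limma adjusted p = 0.239), and 3 of its 4 other probe sets were called higher. The other Sesn2 probe set was called higher at 1.74. Other listed genes differed upward without passing: Gadd45b by 0.62 (limma adjusted p = 0.0705), Tnfsf10 by 0.66 (adjusted p = 0.0993) and Irs2 by 0.73 (adjusted p = 0.166). Of the 41 genes, 22 had a difference below 0.

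Pink1 had log2 values of 9.22, 9.30 and 9.27 in dKO arrays, against 10.57, 10.83 and 10.72 in control arrays. Cdkn1a had 10.38, 9.70 and 9.78 in dKO arrays, against 7.42, 6.94 and 6.35 in control arrays. Neither gene's groups overlapped, and each gene's other probe set was called in the same direction, at -1.34 for Pink1 and 3.02 for Cdkn1a. The calls of Pink1, Cdkn1a, Ypel3, Ccng2 and Ulk1 held with any 1 array left out, with a highest adjusted p of 0.0432, that of Ulk1. The second probe sets of Ccng2 and Ulk1 differed by -1.23 and -0.58 without a call.

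The D-type cyclins Ccnd1 and Ccnd2, which FoxO factors are known to repress, were higher in dKO cells. Ccnd1 rose by 1.91 ± 0.17 on the log2 scale (limma SE, adjusted p = 0.00272) and its other 2 probe sets by 1.73 and 2.25. Ccnd2 had log2 values of 12.27, 12.12 and 12.17 in dKO arrays, against 11.26, 11.13 and 11.43 in control arrays, a difference of 0.91 ± 0.14 (limma adjusted p = 0.0129). Of its 6 other probe sets, 5 were called higher. Of the 5 genes listed as FoxO-repressed, 3 rose and 0 fell, with a median of 0.63. The shares of all genes were 4.49% called higher and 3.56% called lower. The entries beside the D cyclins are less established as FoxO targets: Mycbp rose by 0.63 ± 0.15, while Fos and Plk1 differed by -0.78 and 0.03 without passing. Each of the 6 leave-one-out fits left Mycbp without a call (highest adjusted p = 0.139), and Ccnd2 lost its call without dKO replicate 1 (adjusted p = 0.0518), which left 2 of the 5 that rose, or 1 without dKO replicate 1.

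Genes of the PI3K, AKT and mTOR pathway, which sets FoxO location, changed at few members. Of 32 measured, 2 rose and 2 fell, with a median log2 difference of 0.17. These counts are near the background of 4.49% of all genes called higher and 3.56% called lower. Pik3cd, the PI3K catalytic subunit of blood cells, rose by 1.01 ± 0.12 (limma SE, adjusted p = 0.00609), with 8.27, 8.20 and 8.28 in dKO arrays, against 7.21, 7.27 and 7.25 in control arrays. The kinase Sgk1, which like AKT phosphorylates FoxO proteins, rose by 2.14 ± 0.33 (adjusted p = 0.014). Its dKO arrays had 8.41, 8.66 and 8.71, against 6.64, 7.06 and 5.68 in control arrays. Grb10, an adaptor that dampens insulin receptor signalling, fell by 1.33 ± 0.17 (adjusted p = 0.00716), and Deptor, an mTOR inhibitor, fell by 1.60 ± 0.33 (adjusted p = 0.0319). The phosphatase Inpp4b differed by 0.54 ± 0.14 and did not pass (adjusted p = 0.0704). Of the 5 other Pik3cd probe sets, with differences from -0.58 to 0.87, 1 was called higher, and of the 5 other Deptor probe sets 3 were called lower. Sgk1 lost its call without dKO replicate 2 or 3 (adjusted p up to 0.0525), which left 1 gene that rose, and Deptor kept its call without dKO replicate 1 alone (adjusted p up to 0.0921 otherwise), which left 1 gene that fell.

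Of 24 genes that encode proteins known to bind or modify FoxO factors, 2 rose and 0 fell, with a median log2 difference of 0.21. Over all genes, 4.49% were called higher and 3.56% lower, and little can be read from 2 calls. The dKO arrays all lay above the control arrays in 9 of the 24 and below in 2, against 15.8% and 14.2% of all genes. The 2 genes called higher were 14-3-3 genes: Ywhah rose by 0.71 ± 0.12 (limma SE, adjusted p = 0.0199) and Ywhaz by 0.61 ± 0.13 (adjusted p = 0.032). The 6 other Ywhaz probe sets differed by 0.08 to 0.50 and had no call. Ywhah had 11.77, 11.76 and 11.69 in dKO arrays, against 11.11, 11.02 and 10.96 in control arrays. Another 14-3-3 gene, Ywhag, differed by 0.54 ± 0.14 (adjusted p = 0.065), the kinase Cdk2 by 0.69 ± 0.19 (adjusted p = 0.0776) and the import receptor Tnpo1 by -0.41 ± 0.14 (adjusted p = 0.129), without passing. With 1 array left out, 1 gene of the list rose without control replicate 1 and 0 in each other case.

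**Figure D4:**
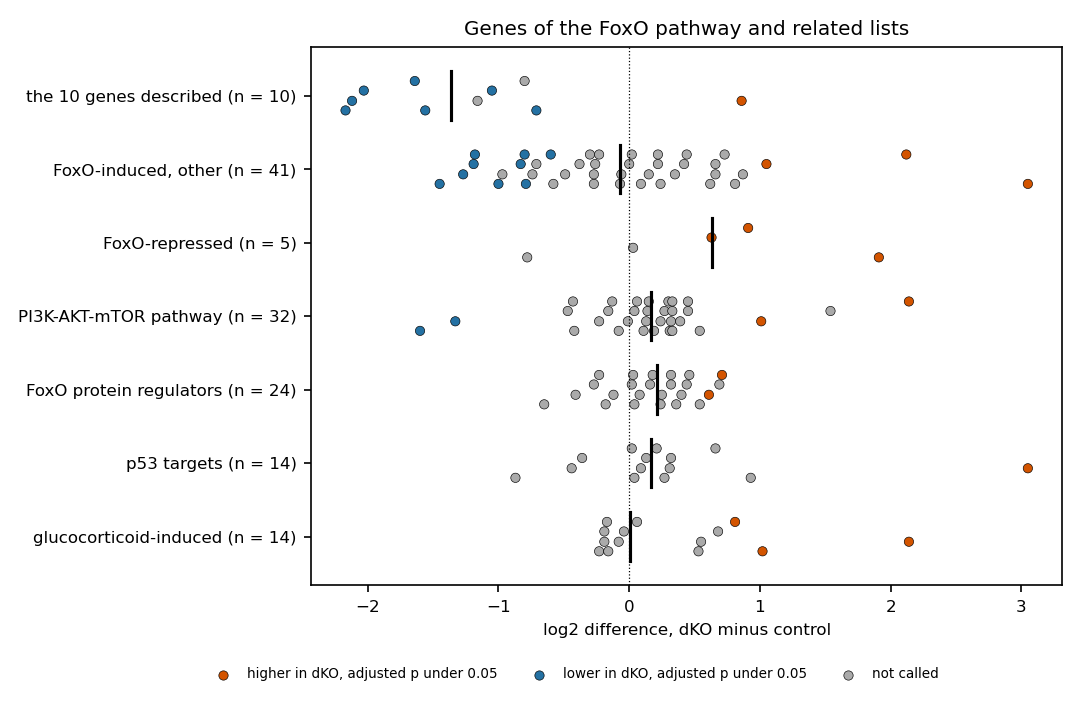
Log2 difference, dKO minus control, of each gene by its representative probe set, for the 10 genes described and 6 lists of related genes, with black bars at the medians and colours for the array-wide call. The 10 genes, chosen with these values known, have a median of -1.36, while the medians of the 41 other FoxO-induced genes and the 32 PI3K-AKT-mTOR genes are -0.07 and 0.17.

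Sesn1 and Tsc22d3 each answer to a further regulator, and the targets of those regulators were counted beside them. For both lists, the shares over all genes to read the counts against are 4.49% called higher and 3.56% called lower. Of 14 measured genes on the list of p53 targets, 1 rose (Cdkn1a) and 0 fell, with a median log2 difference of 0.17. The list does not hold 3 p53 targets described above, Sesn1, which was called lower, and Btg2 and Pmaip1, which rose, so its counts do not cover them. Among the others with the smallest p, Trp53inp1 differed by -0.87 (adjusted p = 0.0712), Sesn2 by 0.66 (adjusted p = 0.101) with its other probe set called higher at 1.74, Tnfrsf10b by 0.93 (adjusted p = 0.377) and Mdm2 by 0.32 (adjusted p = 0.502). Of 14 glucocorticoid-induced genes, 3 rose (Sgk1, Tsc22d1 and Fkbp5) and 0 fell, with a median of 0.01. Tsc22d1, a relative of Tsc22d3, rose by 1.02 ± 0.21 (limma adjusted p = 0.0326), and Fkbp5, a chaperone of the glucocorticoid receptor, by 0.81 ± 0.17 (adjusted p = 0.0327). The 6 other Tsc22d1 probe sets differed by -0.46 to 1.24, and 3 were called higher. The 2 other Fkbp5 probe sets differed by -0.04 and 0.99 without a call. Cebpd and Zbtb16 differed by 0.53 and 0.55 and did not pass. Leaving out dKO replicates 1, 2 and 3 in turn gave 1, 0 and 0 genes that rose, and leaving out control replicates 1, 2 and 3 gave 2, 2 and 1. Tsc22d3 itself is not on the glucocorticoid list. With 3.56% of all genes called lower, a count of 0 that fell among 14 genes does not show that they were unchanged. The part of p53 or glucocorticoid signalling in the Sesn1 and Tsc22d3 differences was not tested.

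Several of the 10 genes, among them Klhl24, Pik3ip1, Tsc22d3 and Foxo1, are also expressed in lymphocytes, which the sort should leave out. By limma, 0 of 13 markers of T and NK cells and 0 of 9 markers of B cells passed the test in either direction. The marker counts here stand beside 4.49% of all genes called higher and 3.56% called lower. A count of 0 in a list this short therefore does not show that a cell type was unchanged. The summed T and NK cell level, as the log2 of summed signals, was 8.81 to 9.17 in dKO arrays, against 8.73 to 8.89 in control arrays. The summed B cell level was 8.76 to 9.46 in dKO arrays, against 8.87 to 9.65 in control arrays. Ncr1, Ms4a1 and Blnk were in the negative control range in both groups. Of 11 granulocyte genes 0 rose and 0 fell, with summed levels of 8.69 to 10.45 in dKO arrays, against 9.91 to 11.50 in control arrays, and Mmp8 in the negative control range. Of 12 monocyte and macrophage genes 3 rose and 0 fell, with summed levels of 9.02 to 9.38 in dKO arrays, against 8.54 to 8.80 in control arrays. Of 10 megakaryocyte and platelet genes 4 rose and 1 fell, with summed levels of 13.15 to 13.77 in dKO arrays, against 12.06 to 12.27 in control arrays, and Gp6 in the negative control range. Of 7 erythroid genes 0 rose and 1 fell, with summed levels of 8.09 to 8.72 in dKO arrays, against 9.07 to 9.20 in control arrays, and Hba-a1 in the negative control range. Of 14 LT-HSC markers 1 rose and 5 fell, with summed levels of 13.37 to 13.53 in dKO arrays, against 13.70 to 13.81 in control arrays. The part of these marker changes in the FoxO gene differences was not tested.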

How the data were processed

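RNA of each sorted pool went through 2 amplification rounds (NuGEN WT-Ovation Pico), per the labels' protocols, a step that can distort differences between transcripts. The deposited values are log2 expression values made by the authors with RMA, per the submitters' processing notes. Its version and settings and the genome build: not given in the sources used here. RMA as usually run scales arrays to each other, so changes are relative, and it compresses differences of dim probe sets. Array medians were 5.90 to 5.92 in dKO arrays and 5.96 to 5.97 in control arrays.

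Groups came from the sample titles. Probe sets were named through the platform annotation: 34945 of 45037 had 1 symbol, 932 several and 9160 none. After removal of 64 array controls, limma 3.58.1 (R 4.3.3; lmFit, eBayes) was fitted to all probe sets, dKO minus control, with Benjamini-Hochberg adjustment over 45037. Every adjusted p printed is limma's. No filter on level was applied. A gene counts by its probe set with the highest mean. Each SD is taken across 3 arrays. Arrays are separate pools of mice, and their number limits the precision: an exact two-sided permutation test of 3 against 3 arrays cannot go below 0.1. On simulated data for this comparison (45037 probe sets, 200 changed), 39% of changes of 1 log2 unit and 94% of changes of 2 were recovered, with 12 false calls. The simulated noise was normal and independent between probe sets. In the real data 3146 probe sets were called, and the adjusted p depends on the share changed, so these rates need not hold there.

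Same-numbered arrays were not paired: their deviations correlated at -0.0164, 0.00238 and 0.0134. The genes and lists were chosen with earlier results of these data known. Lists came from general knowledge, and the 5 genes of each with the smallest p were to be named. Insr, Mxi1, Sesn3, Eif4ebp1, Cat, Btg2, Pmaip1, Cdkn1b, Sod2, Bcl2l11, Gadd45b, Tnfsf10, Irs2, Fbxo32 and Klf6 were added after their values were seen. Alternatives were other scalings, a filter on dim probe sets, other priors, array weights, the replicate block, gene means and leaving out each array.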

Additional observations from a re-analysis of the deposited data

How the results depend on the processing

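Across 12 alternatives, no called probe set of the 10 genes changed direction; of those without a call, Foxo1 1416981_at crossed 0 in 1 alternative and the dim Foxo4 1422149_at in 4. Of 332 combinations of probe set and alternative, 282 kept their side of the threshold, 42 lost a call and 8 gained one, and 12 of the 19 called probe sets kept their call with any 1 array left out. With 1 array left out, the array-wide count was 1338 to 1674 probe sets against 3146 with all arrays. Among the 10 genes it gave 12 to 15 probe sets and 5 to 7 genes lower, and 0 to 1 probe sets and 0 to 1 genes higher. For the lists it gave 4 to 8 lower and 1 to 2 higher other FoxO-induced genes, 1 to 2 higher FoxO-repressed genes, 1 to 2 higher and 1 to 2 lower PI3K-AKT-mTOR genes, 0 to 1 higher FoxO regulators, 0 to 2 higher glucocorticoid-induced genes, and 1 higher and 0 to 1 lower p53 target. With the replicate block, whose numbers do not pair the arrays, 1530 probe sets were called. Of the 10 genes 6 were then lower (12 probe sets) and 0 higher (0 probe sets). The block also left 3 other FoxO-induced genes lower, 1 PI3K-AKT-mTOR gene lower, 0 FoxO regulators higher and 1 glucocorticoid-induced gene higher. Without dim probe sets, 4 FoxO regulators and 5 glucocorticoid-induced genes rose and 1 p53 target fell, and with a trended robust prior 4 regulators rose and 1 p53 target fell. By the mean over all probe sets of a gene, 6 other FoxO-induced genes rose and 11 fell, and 1 regulator and 2 p53 targets rose. Fewer arrays or residual degrees of freedom go with the lower counts of the left-out and blocked fits; for the other changes the cause was not tested.

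Probe sets near the negative control range, 1 each of Foxo4 and Tsc22d3, give no reliable difference, and the fold of Tcp11l2 is limited by its low signal.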

Other observations

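Array profiles were also compared by the Euclidean distance between log2 values centred on each gene's own mean over the 6 arrays, as a description. The genes nearest to Foxo3 were 3 ribosomal protein genes, Rps15 (distance 0.0639), Rpl37a (0.106) and Rplp2 (0.107), with log2 differences of -0.74, -0.67 and -0.77. Rps15 had 11.96, 12.03 and 11.82 in dKO arrays, against 12.64, 12.74 and 12.67 in control arrays. The genes nearest to Tcp11l2 were Gprin3 (0.453), Bex4 (0.511) and Pcmtd2 (0.601), with log2 differences of -2.08, -1.88 and -1.87. Each distance rests on 6 arrays that fall into 2 groups, so a profile is mostly the group difference.

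A further probe set, 1444226_at, is annotated to Foxo3 together with the predicted gene Gm38485 and was not counted. It had log2 values of 6.08, 6.12 and 5.88 in dKO arrays, against 5.59, 6.15 and 5.91 in control arrays, with overlapping groups and a difference of 0.14 ± 0.18 (limma SE).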
